A study of Homo sapiens with 24 samples.

Results

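The 92 genes described here encode the subunits of the mitochondrial respiratory chain and ATP synthase, 13 of them in the mitochondrial genome and 79 in the nucleus. They were chosen by gene symbol from the 14119 genes of the deposited table: the MT-ND, MT-CO, MT-CYB and MT-ATP genes, and the nuclear NDUFA, B, C, S and V genes, SDHA to SDHD, and the UQCR, COX4 to COX8 and ATP5 genes. The pattern matched 93 rows, of which NDUFV2-AS1, an antisense RNA, was left out. Complex I had 45 members (38 nuclear), complex II had 4, complex III had 10 (9 nuclear), complex IV had 14 (11 nuclear) and complex V, the ATP synthase, had 19 (17 nuclear). The symbol rule also takes in genes that are not plain subunits: NDUFA4, which sits in complex I by its name but is known as a subunit of complex IV, NDUFA4L2, its hypoxia-induced paralogue, COX7A2L, which joins complexes III and IV into supercomplexes, UQCRHL, an intronless copy of UQCRH, and ATP5S and ATP5SL, which are not structural parts of the synthase. Symbols are the older ones used in the deposited table; ATP5A1, ATP5F1, ATP5G1, ATP5G3 and ATP5J are now named ATP5F1A, ATP5PB, ATP5MC1, ATP5MC3 and ATP5PF.

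Complexes I to IV pass electrons from NADH and succinate to oxygen, all but complex II pump protons out of the mitochondrial matrix, and complex V lets the protons back to make ATP. All of complex II, and most subunits of the others, are made from nuclear mRNA in the cytosol and imported, while a few hydrophobic core subunits are made inside the organelle from polycistronic RNA that is cut into single mRNAs. Doxycycline is an antibiotic used to switch on inducible hairpins, and it is known to slow protein synthesis on mitochondrial ribosomes.

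RNA came from xenograft tumours grown in mice from COLO320DM, a human colorectal adenocarcinoma cell line, and each of 8 groups had 3 libraries. The sh1487 line on doxycycline (dox) was set against the same line without dox, and so were the sh1487 line carrying a cDNA, the shNT line carrying a cDNA and the shNT line with no cDNA; the hairpin was therefore present in both groups of each pair. Diet with dox began at a mean tumour volume of 150 mm3, tumours were taken on day 3, and every library is labelled 72 hr. What sh1487 targets and which cDNA was carried are not stated in the labels. They also do not say whether the lines are clones or whether the 3 libraries of a group are 3 animals, so p-values measure only the spread between these libraries, which may be technical.

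Libraries held 44004848 to 80202279 reads, and 3 reads, the level taken as the limit for a gene at 0, stood at 0.0368 to 0.0711 CPM (the deposited unit, reads scaled to a common library size); this covers counting error only. CTNNB1, which encodes the β-catenin of the series title, was at 42.5, 45.6 and 41.9 CPM in sh1487 tumours on dox, against 214.7, 230.2 and 234.5 CPM without dox. It was at 569.6 to 610.1 CPM in sh1487 tumours with cDNA on dox against 460.1 to 535.6 CPM without, at 330.9 to 586.9 CPM in shNT tumours with cDNA on dox against 525.2 to 746.2 CPM without, and at 292.2 to 324.9 CPM in shNT tumours on dox against 251.5 to 261.1 CPM without. Of the epithelial markers, CDX2 was at 986 to 2101 CPM, KRT8 at 3.47 to 446 CPM, KRT18 at 30.2 to 129.5 CPM and KRT20 at 1.60 to 52.5 CPM. EPCAM reached at most 2.92 CPM, CDH1 at most 1.23 CPM and VIL1 at most 1.61 CPM. A sum of 3 of 6 neuroendocrine genes was 338.7 to 359.5 CPM in sh1487 tumours on dox against 243 to 263.6 CPM without, 270.8 to 281.6 CPM in sh1487 tumours with cDNA on dox against 216.6 to 228.2 CPM without, and 9.69 to 12.33 CPM in the shNT lines. Replicate 3 of the shNT tumours with cDNA on dox stood apart, with 21.5% of its reads from the mitochondrial genome, while the other 23 libraries had 9.98% to 16.5%. The submitters' notes name GRCh38 only, and a separation of mouse host reads is not given in the sources used here. In bulk tumours, fewer cells of a type and less RNA per cell cannot be told apart.

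Per kilobase of gene model, the 13 mitochondrial mRNAs ranged from 3386 CPM per kb for MT-ATP8 to 21448 CPM per kb for MT-CO1, the catalytic subunit of complex IV. Among nuclear members the level ran from 0.508 CPM per kb for NDUFA7 to 402 CPM per kb for ATP5B, the catalytic beta subunit of the synthase, with a median of 26.4 CPM per kb. Every mitochondrial mRNA was thus above every nuclear one on this scale. The reads of 6 members could belong to another gene on the same strand, since over 20% of their exon bases are shared: NDUFA7, NDUFV2, NDUFA13, NDUFB8, COX8A and MT-ATP8. The use of strand in counting is not given, so genes on the other strand could matter for further members. With both strands taken, 44.5% of exon bases were shared for NDUFA1, 35.9% for NDUFB2, 44.9% for NDUFB11 and 49.1% for NDUFS7. Among others, it was 61.6% for ATP5I and 23.1% for ATP5J.

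MT-ATP8 and MT-ATP6, and MT-ND4L and MT-ND4, are read from shared bicistronic mRNAs whose coding regions overlap, so a read in the overlap cannot be given to either gene. The overlaps are shown because they bear on the level of the shortest mitochondrial member. Below are the last 100 bases of MT-ATP8 (chrM:8473-8572, plus strand, GRCh38) and of MT-ND4L (chrM:10667-10766, plus strand, GRCh38), with the bases that also belong to MT-ATP6 or MT-ND4 in capitals.
MT-ATP8: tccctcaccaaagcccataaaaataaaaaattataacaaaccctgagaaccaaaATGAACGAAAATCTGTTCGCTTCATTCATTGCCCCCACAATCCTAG
MT-ND4L: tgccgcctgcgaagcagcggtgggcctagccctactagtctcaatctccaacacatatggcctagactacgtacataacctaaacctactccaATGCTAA
The overlap is 46 bases long for MT-ATP8 and 7 bases long for MT-ND4L. MT-ND6 is the single member read from the other strand (chrM:14149-14673, minus), and its mRNA is known to carry little or no poly(A) tail, so its level here also depends on poly(A) capture.

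Summed over members, nuclear respiratory chain mRNA had the higher group mean on dox in all 4 lines, while the mitochondrial sum differed by line. In sh1487 tumours the 79 nuclear members summed to 8038, 7999 and 7636 CPM on dox, against 7133, 7656 and 7609 CPM without dox, so that the lowest library on dox lay just below the highest without. In sh1487 tumours with cDNA the nuclear sum was 8395, 7890 and 8830 CPM on dox against 7234, 7123 and 7881 CPM without, and the groups did not overlap. The nuclear sum in shNT tumours with cDNA was 9254, 8655 and 10939 CPM on dox against 8248, 7334 and 8214 CPM without, again with no overlap. In shNT tumours it was 8420, 8649 and 8377 CPM on dox against 6942, 7271 and 7657 CPM without, also with no overlap.

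The 13 mitochondrial mRNAs summed to 105417, 110976 and 107009 CPM in sh1487 tumours on dox against 108541, 104703 and 101167 CPM without, and the groups overlapped. They summed to 84154, 89148 and 122338 CPM in shNT tumours on dox against 122753, 130156 and 120405 CPM without; replicates 1 and 2 on dox were the 2 lowest of the 24 libraries, while replicate 3 lay among those without dox. The ratio of the mitochondrial to the nuclear sum was 9.99, 10.3 and 14.6 in shNT tumours on dox against 17.7, 17.9 and 15.7 without dox. All 3 shNT libraries on dox were below all 3 without, which an exact permutation test of 3 against 3 libraries cannot put below a two-sided p of 0.1. This ratio overlapped between dox and no dox in the other lines: it was 13.1, 13.9 and 14.01 against 15.2, 13.7 and 13.3 in sh1487 tumours, 11.6, 13.1 and 11.9 against 13.7, 12.5 and 14.7 in sh1487 tumours with cDNA, and 14.7, 13.2 and 19.4 against 15.2, 13.5 and 18.5 in shNT tumours with cDNA.

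**Figure D1:**
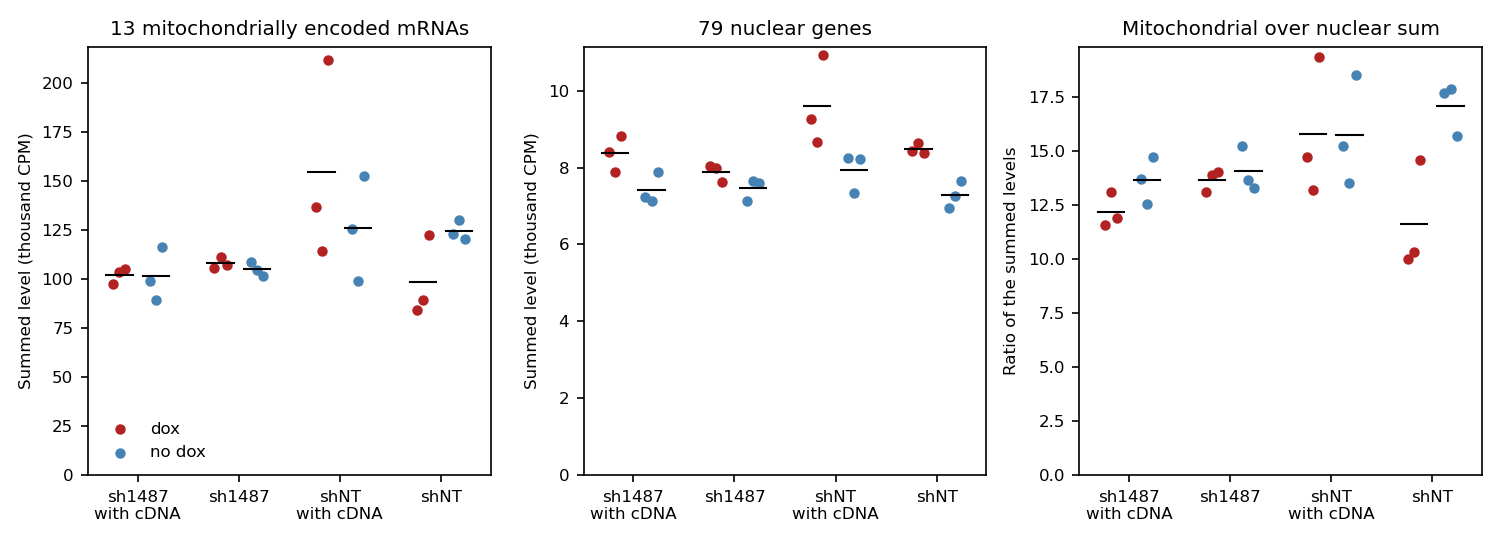
Summed CPM of the 13 mitochondrially encoded and the 79 nuclear members, and their ratio, in each of the 24 libraries (points) with group means (bars), by line. Nuclear sums have the higher group mean on dox in each line, the mitochondrial sum of shNT tumours goes as low as 84154 CPM on dox, and replicate 3 of the shNT tumours with cDNA on dox stands alone at 211743 CPM.

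In sh1487 tumours without cDNA, where CTNNB1 was low on dox, nuclear respiratory chain genes moved in both directions, and those of complex IV all rose. Of the 79 nuclear members, 43 rose and 16 fell at a Benjamini-Hochberg adjusted p under 0.05 over the 13832 genes tested (limma on log2 of CPM plus 1, here and below), with a median log2 change of 0.14. Of the 13 mitochondrial members, 2 rose (MT-ND5 and MT-ND6) and 2 fell (MT-ND1 and MT-ND2), with a median of 0.05; the call on MT-ND2 (log2 change −0.18 ± 0.07, limma adjusted p = 0.022) was lost under 7 other settings. Together 45 of 92 members rose and 18 fell, beside 42.1% of all genes tested that rose and 41.6% that fell, at a median of 0.01 over all genes. Scaling to total reads moved the median of all genes by 0.102, and then 64 members rose and 14 fell.

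All 11 nuclear subunits of complex IV, cytochrome c oxidase, rose in sh1487 tumours on dox, at a median log2 change of 0.31, while none of its 3 mitochondrial core subunits passed the test. COX6A1, a small regulatory subunit, was at 94.5, 94.96 and 85.3 CPM on dox against 56.6, 61.2 and 63.2 CPM without dox. Its log2 change of 0.59 ± 0.05 (SE) had a limma adjusted p of 2.4e-10, and the groups were far apart. COX8A, the smallest subunit, was at 57.5, 58.5 and 49.99 CPM on dox against 40.3, 41.5 and 41.4 CPM without (log2 change 0.42 ± 0.05, limma adjusted p = 2e-07). Every COX8A library on dox was above every one without, although 34.5% of its exon bases are shared with another gene. COX7A2, a small structural subunit, was at 96.7, 91.7 and 89.8 CPM on dox against 61.4, 70.1 and 76.4 CPM without, and COX4I1, a main nuclear subunit, changed least (log2 change 0.14 ± 0.05, limma adjusted p = 0.0086) with overlapping groups. MT-CO1 was level, at 32459, 33977 and 31887 CPM on dox against 33080, 32750 and 31222 CPM without. The nuclear complex IV sum was 1646, 1643 and 1527 CPM on dox against 1226, 1349 and 1359 CPM without, with no overlap.

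Complex I followed with 21 of 38 nuclear subunits higher and 7 lower in sh1487 tumours on dox. NDUFA1, a small membrane arm subunit, was at 142.3, 143.1 and 126.1 CPM on dox against 83.0, 93.5 and 99.0 CPM without (log2 change 0.58 ± 0.06, limma adjusted p = 3.3e-09). NDUFV1, the subunit that binds FMN and takes electrons from NADH, was at 107.3, 113.9 and 105.5 CPM on dox against 147.6, 147.2 and 141.1 CPM without (log2 change −0.41 ± 0.04, limma adjusted p = 7.2e-09). Neither gene had overlapping groups. They were named from the largest called rises and the largest called falls of complex I, so their opposite directions follow from that choice. NDUFV2, the iron-sulphur partner of NDUFV1, fell as well (log2 change −0.48 ± 0.07, limma adjusted p = 2.9e-06), at a mean level of only 1.94 CPM over all libraries. NDUFA4L2 was the most changed member, at 5.92, 6.50 and 5.999 CPM on dox against 3.00, 3.23 and 2.89 CPM without (log2 change 0.82 ± 0.07, limma adjusted p = 1.8e-10).

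Complexes II, III and V had nuclear members called in both directions in sh1487 tumours, where 42.1% of all genes tested rose and 41.6% fell. In complex II, SDHC, a membrane anchor, rose with a log2 change of 0.44 ± 0.04 (162 ± 3.30 CPM on dox and 119 ± 3.48 CPM without, SD, n = 3 each), and SDHA, the flavoprotein that oxidises succinate, fell (128 ± 2.50 CPM on dox and 156 ± 2.29 CPM without; limma adjusted p = 1.3e-06). In complex III, 3 of 9 nuclear subunits rose, among them the small subunit UQCR10 (log2 change 0.50 ± 0.05), and 3 fell, among them UQCRFS1, the Rieske iron-sulphur protein (−0.51 ± 0.04), and the hinge protein gene UQCRH (−0.51 ± 0.05). In complex V, 7 of 17 nuclear members rose and 5 fell. ATP5F1, the stalk subunit b, was at 154.2, 150.7 and 149.3 CPM on dox against 218.2, 242.6 and 241.4 CPM without (log2 change −0.62 ± 0.04, limma adjusted p = 1.3e-11). ATP5G1 and ATP5G3 encode the same mature c subunit of the rotor ring, and they moved in opposite directions. ATP5G1 was at 74.7, 77.3 and 71.1 CPM on dox against 98.6, 105.0 and 103.3 CPM without, and ATP5G3 was at 212.2, 214.3 and 203.3 CPM on dox against 144.8, 157.3 and 154.6 CPM without. Neither gene had overlapping groups, and both passed the limma test (log2 changes −0.46 ± 0.04 and 0.46 ± 0.04, adjusted p = 2.7e-09 and 1.3e-09).

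In shNT tumours without cDNA, nuclear members mostly rose on dox and mitochondrial members fell or did not pass the test. Of 79 nuclear members, 41 rose and 2 fell at a median log2 change of 0.24, and of 13 mitochondrial members none rose and 6 fell at a median of −0.32. This made 41 of 92 members higher and 8 lower, beside 18.7% of all genes tested that rose and 19.1% that fell, at a median of −0.01 over all genes. All 13 mitochondrial estimates were negative. Leaving out replicate 2 of the tumours on dox left 26 members higher and 6 lower, and leaving out replicate 3 left 11 mitochondrial members lower at a median of −0.49.

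MT-ND1, a complex I subunit at the ubiquinone site, was at 4067, 4497 and 5628 CPM in shNT tumours on dox against 9672, 9609 and 9174 CPM without (log2 change −1.02 ± 0.13, limma adjusted p = 0.00014). MT-ND3, another membrane arm subunit, was at 1017, 1158 and 1561 CPM on dox against 2006, 2126 and 2193 CPM without (log2 change −0.78 ± 0.13, limma adjusted p = 0.00083). Both genes were lower in every library on dox, by the most in replicate 1 and by the least in replicate 3. MT-ND2, MT-CYB, the cytochrome b of complex III, MT-ATP6, the proton channel of complex V, and MT-ATP8 fell as well, by 0.44 to 0.85 on the log2 scale. The call on MT-ATP6 was lost under 6 other settings. MT-CO1, MT-CO2 and MT-CO3 of complex IV did not pass, at log2 changes of −0.15 ± 0.17, −0.002 ± 0.14 and −0.32 ± 0.14.

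Among nuclear members in shNT tumours, all 4 of complex II rose, with 20 of 38 in complex I, 4 of 9 in complex III, 5 of 11 in complex IV and 8 of 17 in complex V. SDHA was at 213.9, 216.3 and 188.0 CPM on dox against 163.7, 155.6 and 163.5 CPM without (log2 change 0.35 ± 0.07, limma adjusted p = 0.0026). ATP5G1 was at 134.3, 136.0 and 141.4 CPM on dox against 87.5, 94.7 and 101.7 CPM without (log2 change 0.53 ± 0.07, limma adjusted p = 0.00017). No library overlapped in either gene. The 2 nuclear members that fell were COX7C, a small complex IV subunit (115 ± 7.30 CPM on dox and 139 ± 14.1 CPM without, SD, n = 3 each), and NDUFA4L2, at 1.38, 1.25 and 1.21 CPM on dox against 3.43, 2.94 and 3.52 CPM without (log2 change −0.91 ± 0.08, limma adjusted p = 8e-06).

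Sums of marker genes of other cell types stood apart between dox and no dox in some lines and overlapped in others. The neuroendocrine sum is given above. A sum of 7 of 9 colorectal epithelial genes, mostly CDX2, was 1583 to 1662 CPM in sh1487 tumours on dox against 2029 to 2326 CPM without. It was 1750 to 1887 CPM in shNT tumours on dox against 1587 to 1889 CPM without. With cDNA it was 1589 to 1785 CPM on dox against 1907 to 2219 CPM without in sh1487 tumours. In shNT tumours with cDNA it was 1811 to 2115 CPM on dox against 1538 to 1768 CPM without. A sum of 6 of 8 fibroblast and pericyte genes was 49.7 to 53.9 CPM in sh1487 tumours on dox against 64.5 to 68.6 CPM without, and 128 to 151 CPM in shNT tumours on dox against 105 to 114 CPM without; it overlapped in both lines with cDNA (63.5 to 67.8 CPM on dox against 64.7 to 77.5 CPM without in sh1487, and 107 to 141 CPM on dox against 104 to 123 CPM without in shNT). A sum of 3 of 6 leukocyte genes, mostly PTPRC, was 47.5 to 49.2 CPM in sh1487 tumours on dox against 44.2 to 48.4 CPM without, where the groups overlapped, and 28.4 to 34.0 CPM in shNT tumours on dox against 35.3 to 39.8 CPM without. A sum of 2 of 4 erythroid genes was 6.99 to 9.44 CPM in sh1487 tumours on dox against 12.7 to 13.4 CPM without. In the other lines the erythroid sum was higher on dox, with no overlap. It was 1.714 to 2.396 CPM on dox against 1.108 to 1.611 CPM without in shNT tumours. With cDNA it was 16.32 to 17.56 CPM on dox against 9.021 to 10.35 CPM without in sh1487 tumours. In shNT tumours with cDNA it was 2.731 to 4.574 CPM on dox against 1.647 to 2.511 CPM without. In sh1487 tumours with cDNA the leukocyte sum was 36.4 to 41.8 CPM on dox against 54.9 to 59.1 CPM without. In shNT tumours with cDNA the leukocyte sum was 26.0 to 29.6 CPM on dox against 33.1 to 36.8 CPM without. Of the markers of these types that the deposited data hold, none was at 0 in every library. Markers absent from the data could not be checked. The muscle gene DES was at 0 to 2.21 CPM. The part of these markers in the changes of respiratory chain genes was not tested.

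**Figure D2:**
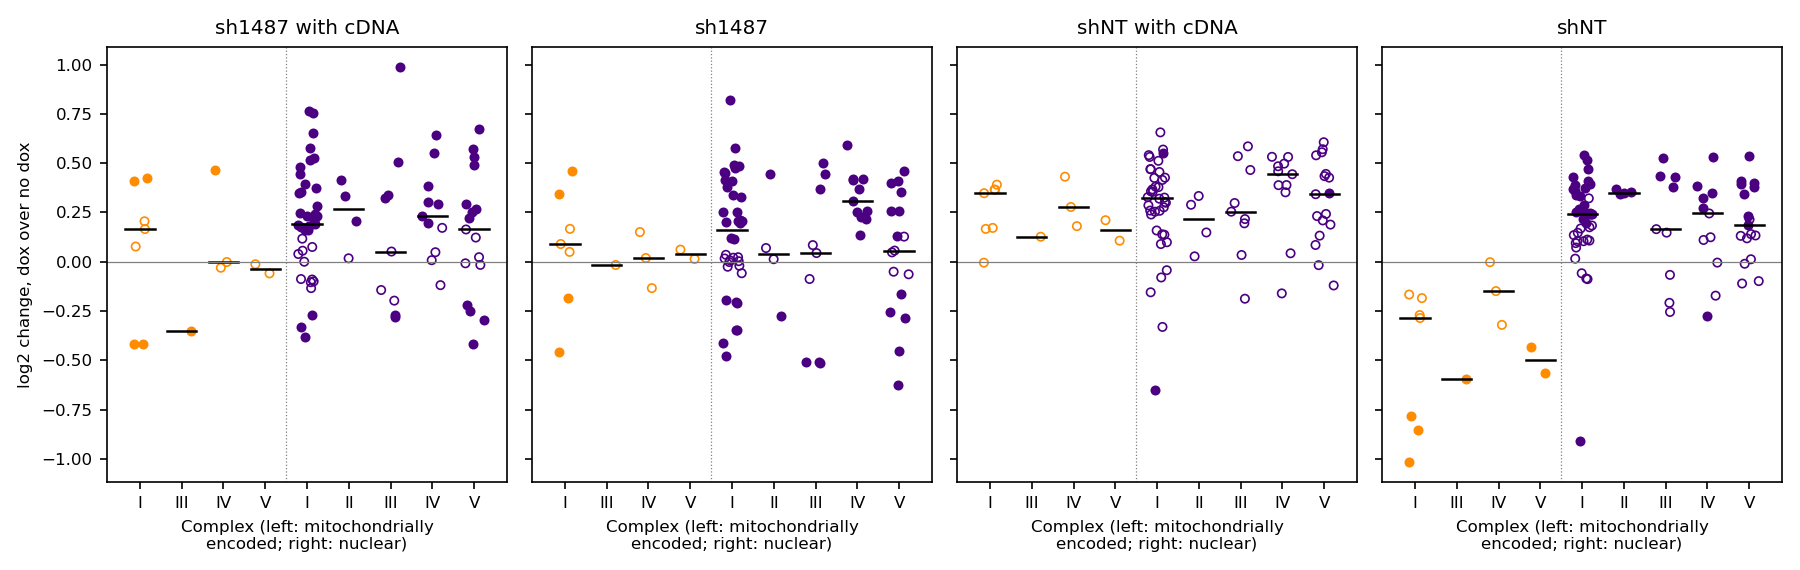
Log2 change on dox over no dox of each of the 92 members in the 4 lines, by complex, with mitochondrially encoded members (orange) left and nuclear members (purple) right of the dotted line; filled points passed the test at an adjusted p under 0.05 and black bars are medians of each class. Nuclear complex IV has a median of 0.31 in sh1487 tumours, nuclear complex II one of 0.35 in shNT tumours, and all mitochondrial points of shNT tumours lie below 0.

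The dox effect in sh1487 tumours was then tested against the dox effect in shNT tumours, without cDNA; the direction given is sh1487 minus shNT. Of 92 members, 24 were higher and 25 lower in this difference, beside 39.1% of all genes tested that were higher and 37% that were lower; under scaling to total reads 30 were higher and 20 lower. All 9 mitochondrial members that passed were higher, at a median difference of 0.51 over the 13, with MT-ND3 at 0.87 ± 0.15 (limma adjusted p = 5.3e-05). Nuclear members were 15 higher and 25 lower, at a median of −0.11. Complex IV had 4 of 11 higher and none lower, whereas complex II had 3 of 4 lower and complex III 1 of 9 higher and 4 lower.

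NDUFA4L2 had the largest log2 difference among the members, 1.73 ± 0.10 (limma adjusted p = 4.9e-11), since it rose in sh1487 and fell in shNT tumours. ATP5G1 had the most negative difference, −0.99 ± 0.08 (limma adjusted p = 4.8e-09). Besides ATP5G1, 6 members fell in sh1487 tumours and rose in shNT tumours: NDUFV1, NDUFA10 and NDUFB6 of complex I, SDHA, and ATP5A1 (the catalytic alpha subunit) and ATP5F1 of complex V. The call on ATP5F1 in shNT tumours was lost under 6 other settings. COX7C and NDUFA4L2 were the members that rose in sh1487 and fell in shNT tumours. Under both hairpins 21 nuclear members rose and none fell, and MT-ND1 and MT-ND2 fell under both. Of all genes tested, 42.1% rose and 41.6% fell in sh1487 tumours, and 18.7% rose and 19.1% fell in shNT tumours. The share of all genes that moved alike or oppositely under both hairpins was not determined, so these counts of members have no background beside them.

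**Figure D3:**
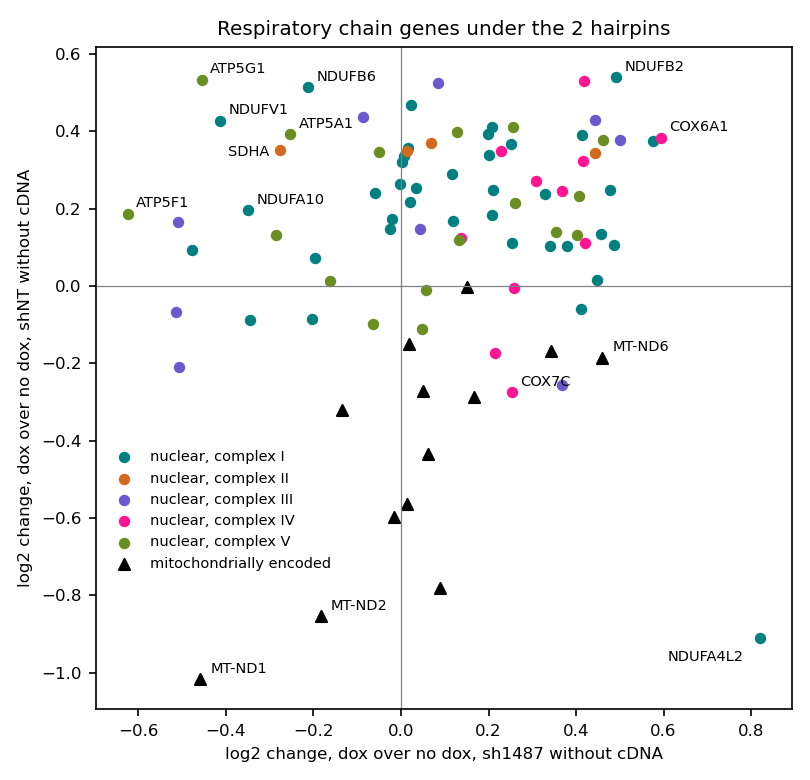
Log2 change on dox over no dox of each member in sh1487 tumours (horizontal) and in shNT tumours (vertical), both without cDNA, coloured by complex; triangles are mitochondrially encoded. NDUFA4L2 stands at 0.82 and −0.91, ATP5G1 at −0.46 and 0.53, and MT-ND1 at −0.46 and −1.02.

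In sh1487 tumours that carried the cDNA, where CTNNB1 was not low on dox, nuclear members again mostly rose. Of 92 members, 50 rose and 12 fell, beside 31.3% of all genes tested that rose and 34.1% that fell; 47 of the 79 nuclear members rose and 9 fell, at a median log2 change of 0.20 against −0.02 over all genes. UQCR11, a small subunit of complex III, was at 14.9, 14.2 and 15.0 CPM on dox against 7.24, 6.27 and 7.23 CPM without (log2 change 0.99 ± 0.08, limma adjusted p = 1.7e-08). NDUFB2, a small complex I subunit, changed by 0.76 ± 0.07 (30.4 ± 1.64 CPM on dox and 17.5 ± 0.478 CPM without, SD, n = 3 each). All dox libraries lay above those without dox for both genes. Of the mitochondrial members, MT-CO2, MT-ND5 and MT-ND6 rose and MT-ND1, MT-ND2 and MT-CYB fell, and their median was 0.00, with a sign that depends on the scaling (−0.0017 to 0.0665).

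In shNT tumours that carried the cDNA, 2 members rose (ATP5G3 and NDUFS6, an accessory subunit of complex I) and 1 fell (NDUFA4L2), beside 1.81% of all genes tested that rose and 2.14% that fell. ATP5G3 was at 254.8, 253.4 and 259.2 CPM on dox against 210.3, 189.2 and 203.0 CPM without (log2 change 0.35 ± 0.07, limma adjusted p = 0.042). NDUFS6 was at 81.7, 75.6 and 95.7 CPM on dox against 58.5, 53.4 and 59.2 CPM without (limma adjusted p = 0.037). NDUFA4L2 was at 1.62, 1.69 and 2.44 CPM on dox against 3.23, 3.91 and 3.55 CPM without (limma adjusted p = 0.041). No library of the 2 groups overlapped in these genes, and each call is lost when some single library is left out: the number of members called was then 0 to 2. The count also depended on the fit: DESeq2 called 15 members higher and 1 lower, and limma over all 24 libraries called 50 higher and 3 lower. With the replicate number as a block, limma called 61 nuclear and 2 mitochondrial members higher and 3 nuclear members lower. Deviations of same-numbered libraries from their group means correlated at 0.02, 0.82 and 0.84 across genes between these groups.

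The nuclear median in shNT tumours with cDNA was 0.33, and 40 of 79 nuclear members had every library on dox above every library without, beside 17.6% of all genes tested; 2 were below in every library, beside 14.1%. The libraries of that group differed widely: without replicate 3 on dox the nuclear median was 0.21 and the mitochondrial median −0.04, against 0.33 and 0.21 with it. MT-CO1 shows the spread, at 39482, 33728 and 59329 CPM on dox against 35382, 28918 and 43341 CPM without.

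The difference of dox effects between sh1487 and shNT tumours with cDNA was called for 3 members as higher and 2 as lower, beside 17.5% and 20.1% of all genes tested; under scaling to total reads it was 5 and 2. UQCR11 was higher by 0.52 ± 0.18 (limma adjusted p = 0.033), and ATP5F1 was lower (log2 difference −0.63 ± 0.11, limma adjusted p = 0.0013). Without replicate 2 of the shNT tumours with cDNA on dox, 19 members were called, and without replicate 3 of that group, 9. Without replicate 3 of the shNT tumours with cDNA and no dox, 8 were called, and without any of 4 other libraries in turn, 3.

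The dox effect in sh1487 tumours with cDNA was also set against that without cDNA, and 28 members were higher and 11 lower in this difference, beside 32% and 37.8% of all genes tested. ATP5G1 was higher by 0.95 ± 0.08 (limma adjusted p = 4e-09): in the line with cDNA it stood at 129.3, 127.3 and 139.4 CPM on dox against 92.6, 88.4 and 99.8 CPM without dox, while it fell on dox in the line with no cDNA. SDHA was higher by 0.48 ± 0.06 and NDUFV1 by 0.45 ± 0.07. NDUFA4L2 was lower (−1.20 ± 0.09, limma adjusted p = 2.8e-09), at 3.61, 4.07 and 3.83 CPM on dox against 5.03, 5.43 and 5.43 CPM without dox in the line with cDNA. Thus NDUFA4L2 fell on dox in both shNT lines and in sh1487 tumours with cDNA, and rose in sh1487 tumours without it. UQCRB, a quinone-site subunit of complex III, was lower as well (−0.64 ± 0.13). By complex, 6 of 9 nuclear members of complex III and 8 of 17 of complex V were higher, and 1 of 11 of complex IV was higher and 2 lower.

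**Figure D4:**
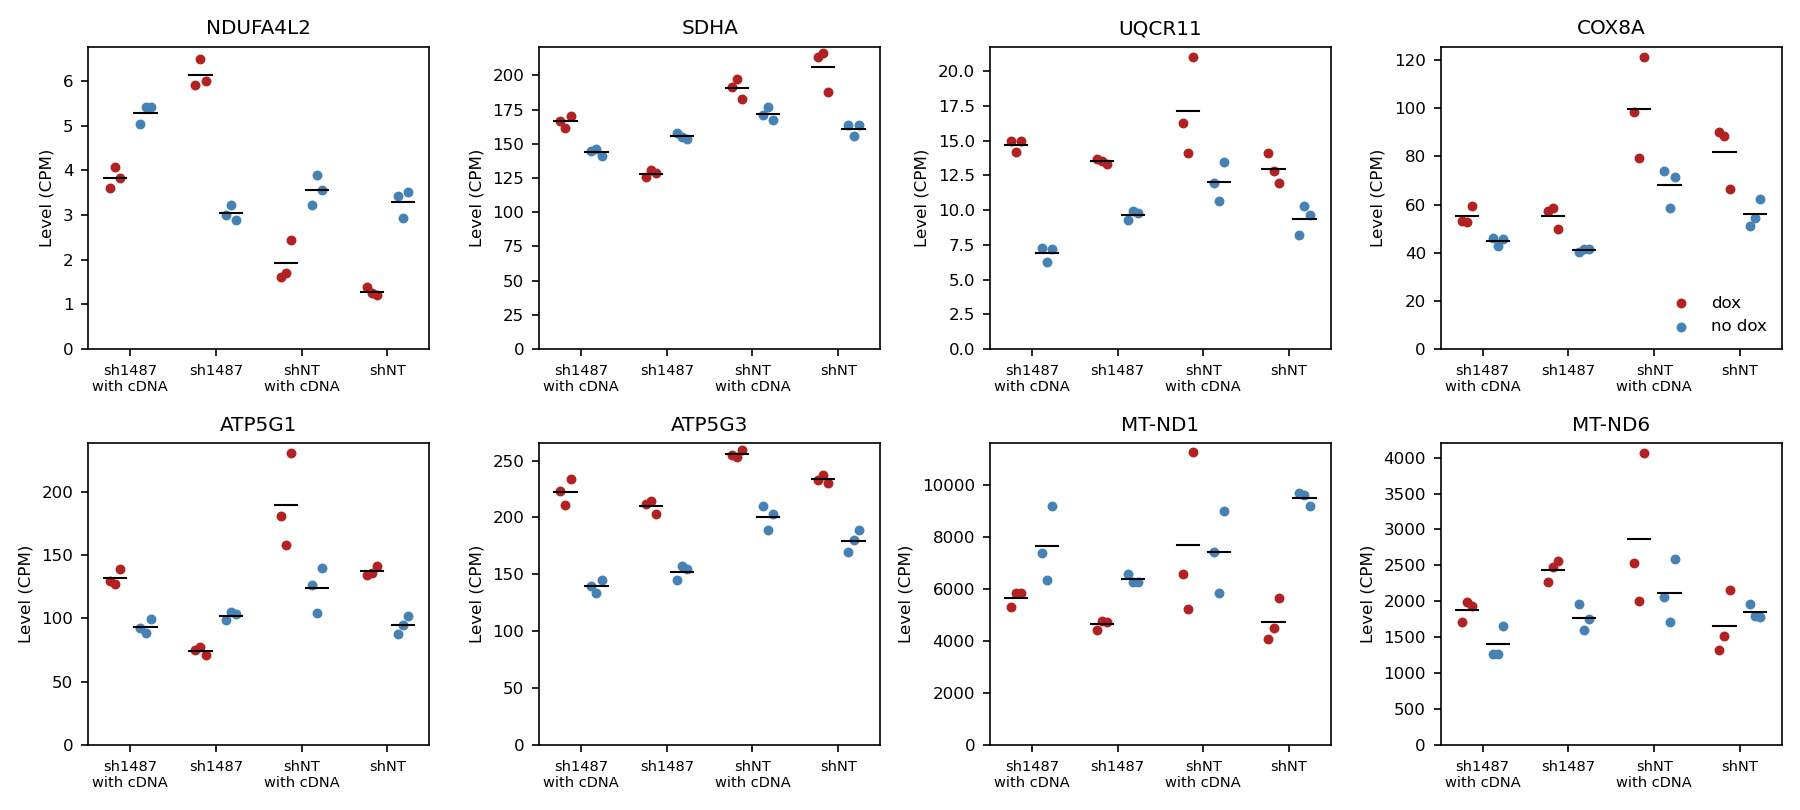
CPM of 8 members in all 24 libraries, by line, with dox to the left of no dox and bars at group means. UQCR11, COX8A and ATP5G3 are higher on dox in every line, ATP5G1 is lower on dox in sh1487 tumours (74.7, 77.3 and 71.1 CPM on dox) and higher elsewhere, and NDUFA4L2 is higher on dox in sh1487 tumours only.

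Some members behaved alike in all 4 lines, which share no libraries. Every library on dox was above every library without dox, in each line, for 15 of the 79 nuclear members (19%), beside 2.54% of all genes tested; none was below in all 4 lines, beside 3.4% of all genes tested. Among them were NDUFA1, NDUFB2, NDUFB4, NDUFB7, NDUFS5 and NDUFS7 of complex I, UQCR10 and UQCR11 of complex III, COX5A, COX7B and COX8A of complex IV, and ATP5G3, ATP5J and ATP5J2 of complex V. No complex II gene and no mitochondrial gene was among them. NDUFS7 is a core subunit near the ubiquinone site, and most of the others named are small accessory subunits. NDUFS5, an accessory subunit, was at 127 to 137 CPM on dox against 109 to 119 CPM without in sh1487 tumours, 146 to 171 CPM against 86.2 to 109 CPM in sh1487 tumours with cDNA, 117 to 197 CPM against 86.1 to 111 CPM in shNT tumours with cDNA, and 93.3 to 121 CPM against 69.3 to 81.7 CPM in shNT tumours.

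The promoters of 63 of the 79 nuclear members were found in the RefSeq table (GRCh38.p14; 250 bases before to 50 after the start), and 3 motifs of factors known to act on nuclear respiratory genes were looked for on both strands. The NRF1 letters, GCGCA and GCGC with any 1 base between, were in 15 of 63 (23.8%), beside 6.28% of all 27305 promoters. The ETS letters CCGGAAG, bound by GABP among others, were in 19 of 63 (30.2%), beside 10.7% of all promoters, and the YY1 letters AAGATGGCG in 8 of 63 (12.7%), beside 1.85%. None of 10 complex IV promoters held the NRF1 letters and 5 held the ETS letters. Of 11 promoters found for the 15 genes above in every line, 3 held NRF1, 5 held ETS and 2 held YY1 letters. Shown are the promoters of 1 such gene each of complexes I, III, IV and V, with matches on either strand in capitals: NDUFB4 (chr3:120596086-120596385, plus strand), UQCR11 (chr19:1605413-1605712, minus strand), COX8A (chr11:63974370-63974669, plus strand) and ATP5J (chr21:25735005-25735304, minus strand), each read 5′ to 3′ on the gene's strand.
NDUFB4: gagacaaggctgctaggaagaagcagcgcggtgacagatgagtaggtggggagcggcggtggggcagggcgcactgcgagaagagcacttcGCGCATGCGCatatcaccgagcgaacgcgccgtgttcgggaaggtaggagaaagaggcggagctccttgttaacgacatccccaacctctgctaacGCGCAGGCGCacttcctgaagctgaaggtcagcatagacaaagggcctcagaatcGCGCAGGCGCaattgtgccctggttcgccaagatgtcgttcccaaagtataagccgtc
UQCR11: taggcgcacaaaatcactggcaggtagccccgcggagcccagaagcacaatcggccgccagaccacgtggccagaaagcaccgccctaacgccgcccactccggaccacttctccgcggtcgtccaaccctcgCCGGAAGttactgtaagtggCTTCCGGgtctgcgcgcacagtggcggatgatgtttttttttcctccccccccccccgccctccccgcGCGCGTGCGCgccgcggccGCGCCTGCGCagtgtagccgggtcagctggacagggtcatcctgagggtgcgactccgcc
COX8A: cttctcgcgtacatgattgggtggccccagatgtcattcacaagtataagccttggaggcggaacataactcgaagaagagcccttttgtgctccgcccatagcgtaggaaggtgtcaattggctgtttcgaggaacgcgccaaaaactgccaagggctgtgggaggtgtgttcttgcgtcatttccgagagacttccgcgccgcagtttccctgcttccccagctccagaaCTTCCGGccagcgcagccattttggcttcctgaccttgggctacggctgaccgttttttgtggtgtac
ATP5J: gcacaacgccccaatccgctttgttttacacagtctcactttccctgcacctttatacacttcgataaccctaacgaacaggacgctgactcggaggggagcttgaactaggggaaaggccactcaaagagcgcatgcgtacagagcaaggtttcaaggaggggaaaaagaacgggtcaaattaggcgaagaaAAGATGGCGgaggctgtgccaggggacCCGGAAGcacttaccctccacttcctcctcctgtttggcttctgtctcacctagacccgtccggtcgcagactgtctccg
NDUFB4 has 3 NRF1 matches, UQCR11 has 2 NRF1 and 2 ETS matches, COX8A has 1 ETS match, and ATP5J has 1 YY1 and 1 ETS match. A match describes these letters and is not a bound site. NDUFB4, an accessory subunit of complex I, rose on dox with log2 changes of 0.41 ± 0.06 in sh1487 and 0.39 ± 0.08 in shNT tumours (limma adjusted p = 5.2e-07 and 0.0021). ATP5J, a coupling subunit of the synthase stalk, rose by 0.26 ± 0.06 in sh1487 tumours and stood at 0.21 ± 0.08 in shNT tumours (limma adjusted p = 0.00041 and 0.063).

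Within the mitochondrial mRNA, 5 of the 13 genes had shares on dox that lay on the same side of those without dox, with no overlap, in all 4 lines; the other 8 overlapped in at least 1 line. Shares were taken of the reads of the 13 mRNAs, which removes the total mitochondrial level, and each line was compared over its own libraries. MT-ND1 made up 4.19%, 4.29% and 4.40% in sh1487 tumours on dox against 6.07%, 5.97% and 6.18% without. It made up 5.43%, 5.65% and 5.55% against 7.44%, 7.10% and 7.93% in sh1487 tumours with cDNA, and 4.82%, 4.57% and 5.31% against 5.92%, 5.90% and 5.90% in shNT tumours with cDNA. In shNT tumours it made up 4.83%, 5.05% and 4.60% on dox against 7.88%, 7.38% and 7.62% without. MT-ND1 was below in every line with no overlap, also in shNT tumours with cDNA, where its CPM overlapped.

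MT-CYB was likewise below in all 4 lines, and MT-CO2, which binds cytochrome c in complex IV, MT-ND4 and MT-ND5 were above in all 4. MT-CO2 made up 10.42% ± 0.030 on dox against 9.66% ± 0.065 without in sh1487 tumours (SD, n = 3 each), and 10.45% ± 0.042 against 7.65% ± 0.230 in sh1487 tumours with cDNA. It made up 9.58% ± 0.011 on dox against 8.56% ± 0.194 in shNT tumours with cDNA, and 9.37% ± 0.359 against 7.33% ± 0.141 in shNT tumours. MT-ND2 was below in 3 lines, MT-ND6 above in 3, MT-CO3 below in 2 and MT-ND4L above in 2. The share of MT-CO1 changed by 15.4% in shNT tumours, with no overlap, against −1.5% in sh1487 tumours and −3.0% in sh1487 tumours with cDNA, where the groups overlapped. The share of MT-ND3 changed by −25.6% in shNT tumours, with no overlap, against 3.4% in sh1487 tumours and 4.1% in sh1487 tumours with cDNA, again with overlap. Each comparison with no overlap has a two-sided exact permutation p of 0.1 in a line, the smallest that 3 against 3 libraries allow. Where the shares overlapped, the exact permutation p was 0.2 to 0.8. The shares sum to 100%, so that a gene's share also depends on the others. MT-ND1 and MT-ND2 are the first 2 protein-coding genes of the plus strand and MT-CYB is the last of them. MT-CO2, MT-ND4 and MT-ND5 lie between. A relation of the change to the order of the genes along the genome was not tested.

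**Figure D5:**
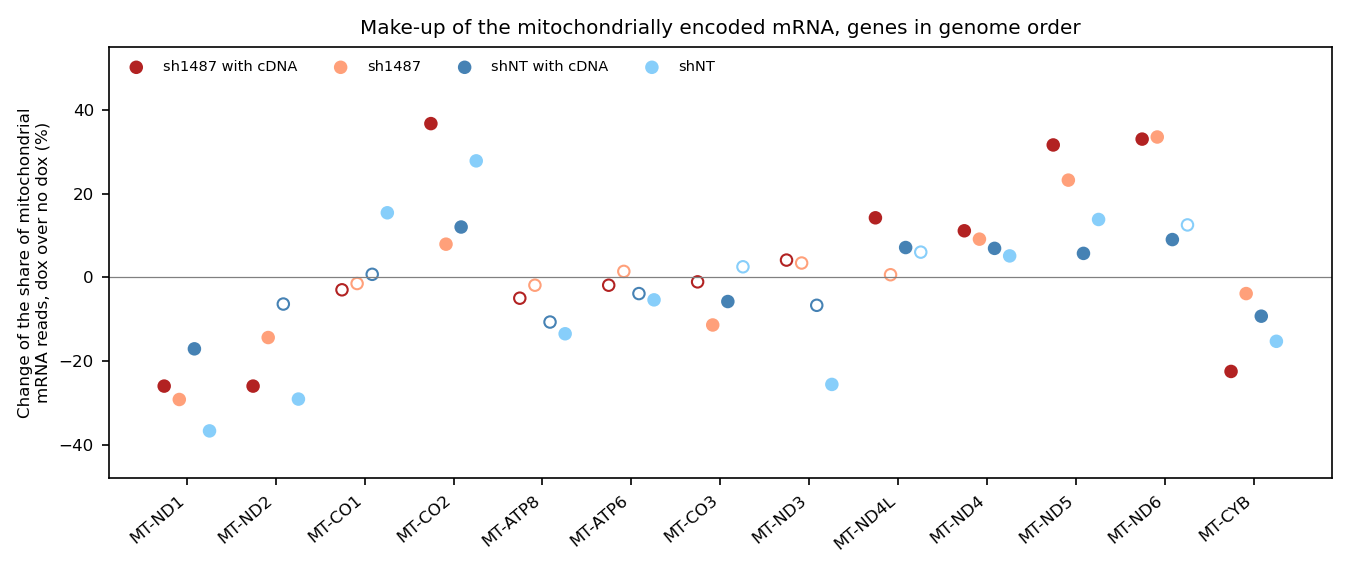
Percent change of each gene's share of the mitochondrial mRNA reads on dox over no dox in the 4 lines, with genes in genome order; filled points mark groups of 3 libraries that do not overlap. MT-ND1 changes by −29.2% in sh1487 and −36.7% in shNT tumours, and MT-CO2 by 36.7% in sh1487 tumours with cDNA and 27.8% in shNT tumours.

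Genes that assemble complex I or maintain and express the mitochondrial genome mostly fell on dox in sh1487 tumours without cDNA, where 42.1% of all genes tested rose and 41.6% fell. Of 16 assembly factors of complex I, 3 rose on dox and 10 fell (median log2 change −0.44), of 14 genes of mitochondrial DNA maintenance and transcription 2 rose and 11 fell (−0.42), of 18 genes of mitochondrial RNA processing and decay 2 rose and 14 fell (−0.47), and of 15 genes of the outer membrane and import 1 rose and 12 fell (−0.46). LRPPRC, which stabilises mitochondrial mRNA, was at 379 ± 19.7 CPM on dox and 940 ± 20.2 CPM without (SD, n = 3 each; log2 change −1.31, limma adjusted p = 3.07e-17). TFAM, which packages and transcribes mitochondrial DNA, was at 53.0 ± 2.56 CPM on dox and 86.2 ± 3.19 CPM without. NDUFAF2, an assembly factor of complex I, was at 24.8 ± 0.619 CPM on dox and 48.7 ± 1.49 CPM without. COX17, the copper chaperone of complex IV, rose in contrast, with 43.0 ± 1.83 CPM on dox and 21.3 ± 1.59 CPM without. The other assembly factors were divided: 8 of 23 for complex IV rose and 9 fell, 4 of 10 for complexes II and III rose and 6 fell, and 3 of 5 for complex V rose and 1 fell.

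In shNT tumours on dox, where 18.7% of all genes tested rose and 19.1% fell, no gene of the complex I assembly, DNA maintenance, RNA processing, import and TCA cycle lists fell. Of 16 complex I assembly factors 6 rose and none fell, of 18 RNA processing genes 8 rose and none fell, of 14 DNA maintenance genes 4 rose and none fell, of 17 TCA cycle genes 10 rose and none fell, and of 15 outer membrane and import genes 7 rose and none fell. Of the assembly factors, 3 of 10 for complexes II and III rose and none fell, 9 of 23 for complex IV rose and 2 fell, and 2 of 5 for complex V rose and none fell. LRPPRC was at 667 ± 47.5 CPM on dox and 582 ± 33.4 CPM without (SD, n = 3 each; limma adjusted p = 0.068), and TFAM was at 67.9 ± 3.88 CPM on dox and 60.99 ± 3.92 CPM without (limma adjusted p = 0.12), so neither passed. Of 13 regulators of mitochondrial biogenesis, 1 rose and 6 fell in shNT tumours, against 4 that rose and 9 that fell in sh1487 tumours.

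In the test of the difference between these 2 dox effects, 17 of 18 RNA processing genes and 13 of 15 import genes were lower in sh1487, and 1 of each was higher, beside 37% of all genes tested that were lower and 39.1% that were higher. Complex I assembly factors were lower for 10 of 16 and higher for none, and DNA maintenance genes lower for 11 of 14 and higher for 1. Assembly factors of complexes II and III were lower for 5 of 10 and higher for 2, those of complex IV lower for 10 of 23 and higher for 3, and those of complex V lower for 2 of 5 and higher for 2. Of 17 TCA cycle genes, 4 rose and 9 fell in sh1487 tumours on dox, among them SUCLA2, a subunit of succinyl-CoA synthetase (37.8 ± 1.00 CPM on dox and 151 ± 8.43 CPM without, SD, n = 3 each). Citrate synthase, CS, was at 285 ± 2.33 CPM on dox and 522 ± 3.76 CPM without in sh1487 tumours, and at 378 ± 6.35 CPM on dox and 376 ± 11.9 CPM without in shNT tumours. Electron carriers and shared subunits outside the symbol rule had 5 of 13 higher and 5 lower in sh1487 tumours, and 6 higher and 1 lower in shNT tumours. CYC1, the cytochrome c1 of complex III that the symbol rule does not match, fell by 0.19 on the log2 scale in sh1487 tumours (113 ± 4.47 CPM on dox and 129 ± 3.52 CPM without) and rose by 0.53 in shNT tumours (137 ± 12.9 CPM on dox and 94.4 ± 6.09 CPM without).

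In sh1487 tumours the dox effect with cDNA was also set against that without for these lists, where 32% of all genes tested were higher and 37.8% lower. In the difference of dox effects with and without cDNA, 13 of 18 RNA processing genes were higher and 1 lower, 12 of 15 import genes higher and none lower, 10 of 16 complex I assembly factors higher and 2 lower, and 10 of 17 TCA cycle genes higher and 1 lower. Of 14 DNA maintenance genes 9 were higher and 4 lower. Assembly factors of the other complexes were divided, with 5 of 10 higher and 4 lower for complexes II and III, 4 of 23 higher and 5 lower for complex IV, and 2 of 5 higher and 2 lower for complex V. On dox in the line with cDNA itself, 2 of 14 DNA maintenance genes rose and 9 fell, beside 31.3% and 34.1% of all genes tested. RNA processing genes rose for 4 of 18 and fell for 8, and complex I assembly factors rose for 4 of 16 and fell for 6. TCA cycle genes rose for 10 of 17 and fell for 3, and import genes rose for 6 of 15 and fell for 3.

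Without dox or cDNA the sh1487 and shNT lines already differed. Of 92 members, 26 were higher and 37 lower in sh1487 tumours, beside 36.2% of all genes tested that were higher and 37.2% that were lower. Of the 13 mitochondrial members, 7 were lower and none higher, at a median log2 difference of −0.23. MT-CYB was at 4441, 4251 and 4020 CPM in sh1487 tumours against 7708, 8167 and 7649 CPM in shNT tumours (log2 difference −0.89 ± 0.08, limma adjusted p = 2.2e-07). NDUFB11, a membrane arm subunit of complex I, was at 101.6, 107.5 and 103.1 CPM in sh1487 tumours against 48.3, 49.1 and 55.6 CPM in shNT tumours (log2 difference 1.02 ± 0.06, limma adjusted p = 7.5e-09). Neither gene overlapped between the lines. The neuroendocrine genes were far apart between these groups too (243 to 263.6 CPM in sh1487 and 10.1 to 12.3 CPM in shNT tumours), as were the fibroblast genes (64.5 to 68.6 CPM in sh1487 and 105 to 114 CPM in shNT tumours), and their part in the member differences was not tested.

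The cDNA alone, in shNT tumours without dox, was followed by no called member with limma, beside 0.0651% of all genes tested that were higher and 0.383% that were lower. At an unadjusted p under 0.05, 22 members were higher and none lower with limma, and 31 were higher and 1 lower with edgeR, which also called none, while DESeq2 called 6 as higher. Same-numbered libraries of these 2 groups deviated together, and with the replicate number as a block 6 members were called, all higher. Without replicate 2 of the tumours with cDNA, 17 were called. The nuclear median was 0.16 and the mitochondrial median −0.06, which was 0.10 without replicate 2 of the tumours with cDNA.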

How the data were processed

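The 24 libraries (8 groups of 3) were poly(A)-selected with a TruSeq stranded kit, per the labels' protocols. The submitters' processing notes name GRCh38, edgeR 4.0.2, Subread 2.4.2, featureCounts, STAR 2.7.7a and Trimmomatic 0.39; their roles, the annotation and the use of strand in counting are not given in the sources used here. The deposited values are a signal in CPM, reads scaled by the authors to an effective library size, and 100% of them were whole reads to within 0.001 after division by the worth of 1 read.

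A gene was kept where 3 or more libraries reached 1 CPM, which removed 287 genes and left 13832, with all 92 members among them. limma 3.58.1 (R 4.3.3, eBayes with trend) was fitted to log2 of CPM plus 1 over the libraries of the groups compared, in 9 comparisons, with Benjamini-Hochberg adjustment over all genes kept; "rose", "fell" and "called" mean an adjusted p under 0.05. This scale understates changes of low genes. The fit was tested on simulated data. Alternatives used edgeR 4.0.16 and DESeq2 1.42.0 on the recovered reads, other scalings, filters and pseudocounts, a joint fit, a block for the replicate number, and the omission of each library; leaving out replicate 3 of both shNT groups with cDNA was added after seeing the data.

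Deviations of same-numbered libraries from their group means correlated at 0.11, 0.16 and 0.65 across genes between shNT tumours with and without cDNA, both without dox, so a paired fit is given there; in each other comparison at least 1 correlation did not exceed 0.1. For dox in shNT tumours with cDNA the correlations were 0.02, 0.82 and 0.84, and the fit with a block is given beside that result.

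Members and lists were chosen with earlier results of these data known. Values are given for the 13 mitochondrial members, in each complex for the 2 largest rises and falls called for dox in sh1487 tumours without cDNA, for isoform pairs, for the 3 largest called changes of other comparisons, and for up to 3 genes of each other list by smallest p. Further members were named after their values were seen: those that moved oppositely under the hairpins, those above in all 4 lines (not every one is reported here by name), and CYC1 and TFAM. Exon overlaps come from GENCODE v29 and promoters from RefSeq.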

Additional observations from a re-analysis of the deposited data

Results flagged for a closer look

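The dox effect differed between the sh1487 and shNT lines without cDNA for 24 members as higher and 25 as lower (limma, a test of the difference itself, sh1487 minus shNT). Over all genes tested, 39.1% were higher and 37% lower. NDUFA4L2 differed by 1.73 on the log2 scale and ATP5G1 by −0.99. Of the mitochondrial members, MT-ND3 differed by 0.87, MT-ND2 by 0.67, MT-ND6 by 0.64, MT-CYB by 0.58, MT-ATP8 by 0.58, MT-ND1 by 0.56, MT-ND5 by 0.51, MT-ATP6 by 0.50 and MT-ND4 by 0.45. The call on MT-ND4 was lost under 11 other settings.

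With cDNA, the same difference was called for 3 members as higher and 2 as lower, beside 17.5% and 20.1% of all genes tested. ATP5F1 differed by −0.63, UQCR11 by 0.52 and ATP5SL by −0.38, and the call on UQCR11 was lost under 9 other settings.

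Within the sh1487 line, the dox effect with cDNA minus that without was called for 28 members as higher and 11 as lower. Of all genes tested, 32% were higher and 37.8% lower. NDUFA4L2 differed by −1.20, ATP5G1 by 0.95 and UQCRB by −0.64. These 3 tests share libraries with each other and with the single comparisons.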

How the results depend on the processing

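No named member that was called changed sign under the alternatives run, but medians over members did. Without replicate 3 of the shNT tumours with cDNA on dox, the mitochondrial median for dox in that line was −0.04 (0.21 with it), and the hairpin difference with cDNA had medians of 0.01 for nuclear members (−0.11) and 0.06 for mitochondrial members (−0.18). Medians within 0.06 of 0 also changed sign with a library or a scaling: the mitochondrial ones for dox and the cDNA difference in sh1487 tumours with cDNA and for cDNA in shNT tumours, and the nuclear one for the baseline. In the fit over all 24 libraries, 31 members were called for the hairpin difference without cDNA (49 in the fit reported), 41 for dox in sh1487 tumours with cDNA (62), 53 for dox in shNT tumours with cDNA (3), 14 for the hairpin difference with cDNA (5), 22 for the cDNA difference in sh1487 tumours (39) and 1 for cDNA in shNT tumours (0). For dox in shNT tumours with cDNA, edgeR called 1 with TMM and 1 with DESeq2 size factors, DESeq2 called 16, and 8 were called without replicate 3 of both groups, where the hairpin difference with cDNA gave 13. DESeq2 called 6 for cDNA in shNT tumours. A least absolute log2 change of 0.25 left 41 for the baseline lines (63). The cause of these shifts was not tested. With the replicate number as a block, dox in shNT tumours with cDNA gave 66, with correlations of same-numbered libraries of 0.02, 0.82 and 0.84, the hairpin difference with cDNA gave 22, and cDNA in shNT tumours gave 6; the block moved no other count by over 1.5 times. Leaving out single libraries gave 32 to 58 members for dox in shNT tumours, 0 to 2 for dox in shNT tumours with cDNA, 3 to 19 for the hairpin difference with cDNA and 0 to 17 for cDNA in shNT tumours; in the other 5 comparisons it gave 59 to 64 for dox in sh1487, 42 to 61 for the hairpin difference, 48 to 63 with cDNA, 32 to 42 for the cDNA difference and 54 to 66 for the baseline. The 3 libraries of a group, the unknown source of replicates, host reads and unknown strand use limit what these values can show.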
